A study of Saccharomyces cerevisiae with 2 samples.

Results

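The genes described here encode 32 subunits of the yeast proteasome and its transcriptional regulator Rpn4, 33 genes among the 6448 open reading frames of a table of run-on counts. They were listed by systematic name, and the rule that lists them uses no measured value, although earlier results of these data were known when the complex was picked. They comprise 14 subunits of the 20S core, 6 RPT ATPases, 12 RPN subunits and RPN4. All 33 were in the table as protein-coding genes and all had at least 100 counts over both libraries. Transcription was measured by BioGRO-seq in the budding yeast Saccharomyces cerevisiae. In this assay engaged RNA polymerases in permeabilised cells extend their transcripts with a biotin-labelled UTP, for 5 min at 30 °C, and the labelled RNA is purified and sequenced. Older transcript ends were trimmed with RNase A before the run-on. There was 1 library from a strain of the Euroscarf collection that lacks XRN1 and 1 from the BY4741 wild type, both from cultures frozen at an OD600 of 0.55. No other genotype of the deletion strain is given in the labels, which name no treatment of the growing cells.

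The proteasome degrades proteins that carry ubiquitin chains. Its barrel-shaped core holds the proteolytic sites inside, and the regulatory particle at its ends binds, unfolds and feeds in the substrates. In yeast most proteasome genes share an upstream sequence, the proteasome-associated control element (PACE), that is bound by the activator Rpn4. Rpn4 is itself a rapidly degraded proteasome substrate, so that a loss of proteasome activity leads to more Rpn4 and more subunit transcription. The deleted gene encodes Xrn1, an exonuclease of the cytoplasm that digests decapped mRNA starting at the 5′ end. The series asks how Xrn1 influences transcription.

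The PACE sequence is shown first because it is the feature that the genes share outside the protein complex. The letters GGTGGCAAA, sought on both strands within 300 bases upstream of the start codon, were found at 27 of the 33 genes (81.8%). They were found at 69 of all 5273 annotated protein-coding genes of the table (1.31%), so that 39.1% of the genes with the sequence encode proteasome subunits. Since most proteasome genes were already known to share this element, the high share among them is no independent result. Each of the 27 genes held a single copy. Its base farthest from the start codon lay between 84 bases (RPT6) and 183 bases (PUP3) upstream, with a median of 120. In 19 genes it was read on the strand of the gene and in 8 on the other strand. The 8-letter core GGTGGCAA was present in the same number of members, 27, and in 93 genes in all. A match is a description of these letters and does not show that Rpn4 binds there.

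The following stretches belong to the genes with the highest and the lowest ratio between the strains among those with PACE, for the core, the ATPases and the RPN subunits in turn. Each is given 5′ to 3′ on the strand that reads the PACE, with the PACE in capitals, from the RefSeq R64 genome, the build named in the submitters' processing notes.
SCL1: ctatccttacGGTGGCAAAttggtgtgtg
PUP2: aaccaagaccGGTGGCAAAagagtaacct
RPT5: gccaatatgtGGTGGCAAAaatgaattaa
RPT4: ctttcccttcGGTGGCAAAttccactatt
RPN12: aatttcaatgGGTGGCAAAtaatgtgtag
RPN9: gctttcatccGGTGGCAAAagtaagaaca
The stretches lie at chrVII:475337-475365 (plus strand) for SCL1, chrVII:999226-999254 (minus) for PUP2, chrXV:544855-544883 (plus) for RPT5, chrXV:813802-813830 (plus) for RPT4, chrVI:252398-252426 (minus) for RPN12 and chrIV:1322086-1322114 (plus) for RPN9. At either end of the range of ratios the bases around the 9 letters differ from gene to gene.

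PRE5, PUP1, RPN8, RPN10, RPN13 and RPN4 held no exact PACE in the window. In 3 of them a variant with A as its first base, AGTGGCAAA, was found. It was searched for after these members were known, and it occurs upstream of 48 of the 5273 genes (0.910%).
PRE5: cctattatagAGTGGCAAAattaaaaatt
PUP1: aacccggccgAGTGGCAAAataccaaaaa
RPN8: gggatacctcAGTGGCAAAtcgttactca
These lie at chrXIII:901552-901580 (plus strand), chrXV:631891-631919 (minus) and chrXV:817085-817113 (minus), with the motif between 147 and 172 bases before the start codon. With the variant, 30 of the 33 genes held one form or the other. RPN10, RPN13 and RPN4 held neither.

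**Figure D1:**
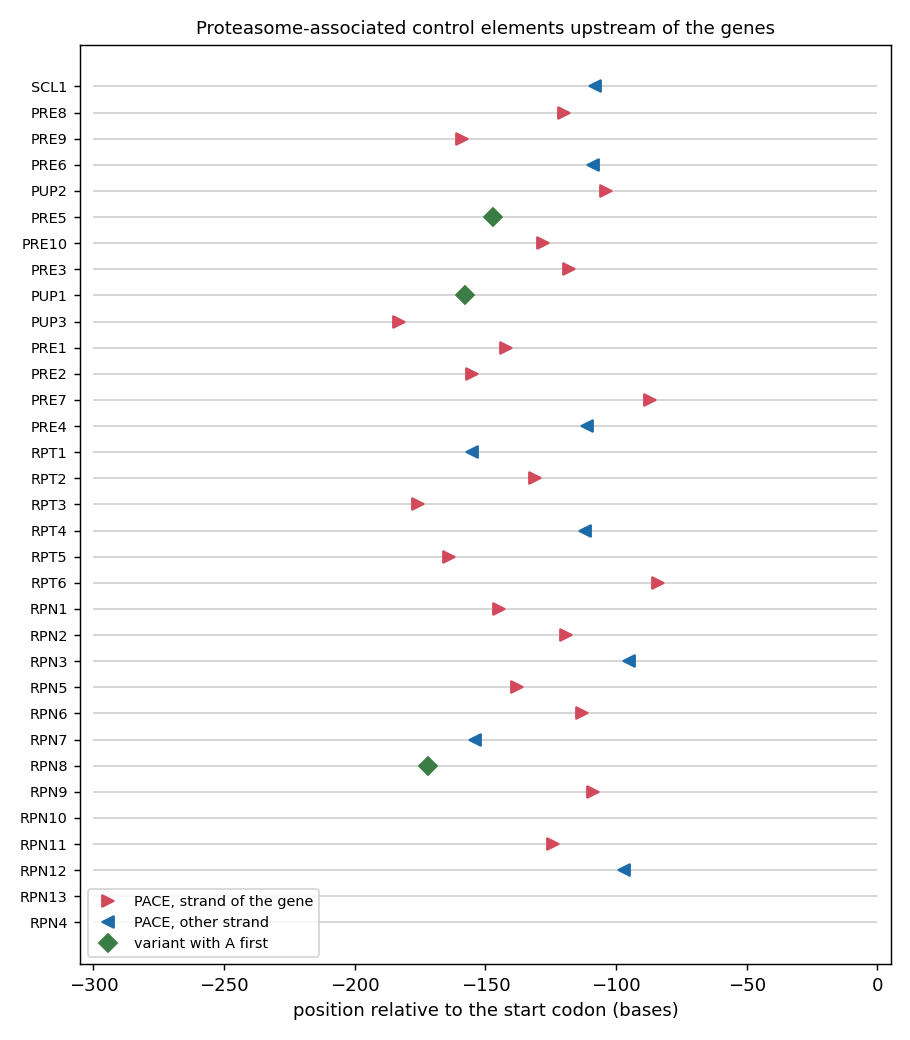
Position of the PACE sequence relative to the start codon (bases, x axis) in the 300 bases upstream of each of the 33 genes (rows). Triangles point along the strand on which PACE reads, diamonds mark the variant with A as its first base, and the positions lie between 84 and 183 bases upstream, with no symbol for RPN10, RPN13 and RPN4.

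RPN4 (YDL020C) lies on chromosome IV (415113 to 416708, minus strand) and is itself known to be activated by Pdr1 and Pdr3, by the oxidative stress factor Yap1 and by the heat shock factor Hsf1. Within 600 bases upstream of its start codon the letters TCCGTGGA, a form of the Pdr1/Pdr3 element, were found at 2 places, against at least 1 place in 67 of the 5273 genes (1.27%). Both are shown, each on the strand that reads the element, with the element in capitals.
RPN4 distal: aataacaagtTCCGTGGAactcaaagaa
RPN4 proximal: cacgtgattaTCCGTGGAaaggttcgta
The distal stretch is chrIV:417133-417160 on the minus strand and the proximal one chrIV:417090-417117 on the plus strand. The elements begin 442 and 399 bases upstream of the start codon. The same window held the Yap1 sequence TTACTAA once (13.7% of genes hold it in 600 bases) and the Hsf1 pattern, GAA, TTC and GAA each 2 bases apart, at 2 places (1.69% of genes hold it).

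The libraries held 46396400 counts for the deletion strain and 64934493 for the wild type. XRN1 had 53 counts in the deletion strain and 41954 in the wild type, in accord with the labels. Each ratio below is the count in the deletion strain over that in the wild type, divided by 0.701. That number is the median of the undivided ratios over the 5198 genes that code for protein and have 100 counts or more in both libraries together. A ratio of 1, or 0 on the log2 scale, is therefore the median gene, and a shift of every gene alike would not show. Brackets give 95% counting intervals. With 1 library per strain the spread between cultures is unknown, so no p-value is given and no difference can be held against replicate error. Stress genes differed between these libraries. HSP12 had 2166 counts in the deletion strain and 81 in the wild type, a ratio of 38.1, the highest of a list of 8. HSP104, the one with most counts, had 269910 and 136643 and a ratio of 2.82, and CTT1 was lowest, with 2855 and 3067 counts and a ratio of 1.33. Of the 8 genes listed as stress-induced, 6 were at least 2-fold higher in the deletion strain, against 4.06% of all genes. The 6 include GLK1, at a ratio of 2.98, and the glucose-repressed gene HXK1, at 17.2. The list was chosen with earlier results of these data known. Together the 8 took 1.04% of the counts of the deletion strain against 0.336% in the wild type. The part of that difference in the values below was not tested.

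All 33 genes had levels above the median gene of the table in both strains. Levels are given as CPM, the counts divided by the library total in units of 1000000, per kb of coding length, so that genes of different length can be compared. The 32 subunit genes had a median level of 263 in the deletion strain and 262 in the wild type, against 70.6 and 68.8 for the median of 5177 measured protein-coding genes. These medians of the subunits stood at percentiles 89.4 and 90.0 of all genes. Every one of the 33 genes was above the upper quartile of all genes in the deletion strain (127), and 32 were above it in the wild type (121). The exception in the wild type was RPN7, a lid subunit, at 117.

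The levels of single subunits differed, also among the core subunits, which the assembled core holds in equal numbers. PUP3, the β3 subunit of the core, was the highest in both strains, at 612 (95% Poisson interval 603 to 621) in the deletion strain and 520 (513 to 527) in the wild type. RPN7 was the lowest in both, at 129 (126 to 132) and 117 (115 to 119). The highest level was thus 4.76 times the lowest in the deletion strain and 4.44 times in the wild type. The ATPases were the most even of the groups, between 173 (RPT2) and 320 (RPT1) in the deletion strain and between 185 (RPT2) and 327 (RPT1) in the wild type. The core subunits lay between 170 (PRE8) and 612 in the deletion strain and between 143 (PRE8) and 520 in the wild type, and the RPN subunits between 129 and 373 (RPN11) against 117 and 348 (RPN11). The rank order of the 33 levels was close in the strains, with a Spearman coefficient of 0.93 across genes, which are not independent replicates and share their coding length in both libraries. Some neighbours in this order had nearly the same level, such as RPN3 at 289 (286 to 292) and RPN2 at 288 (286 to 291) in the wild type.

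**Figure D2:**
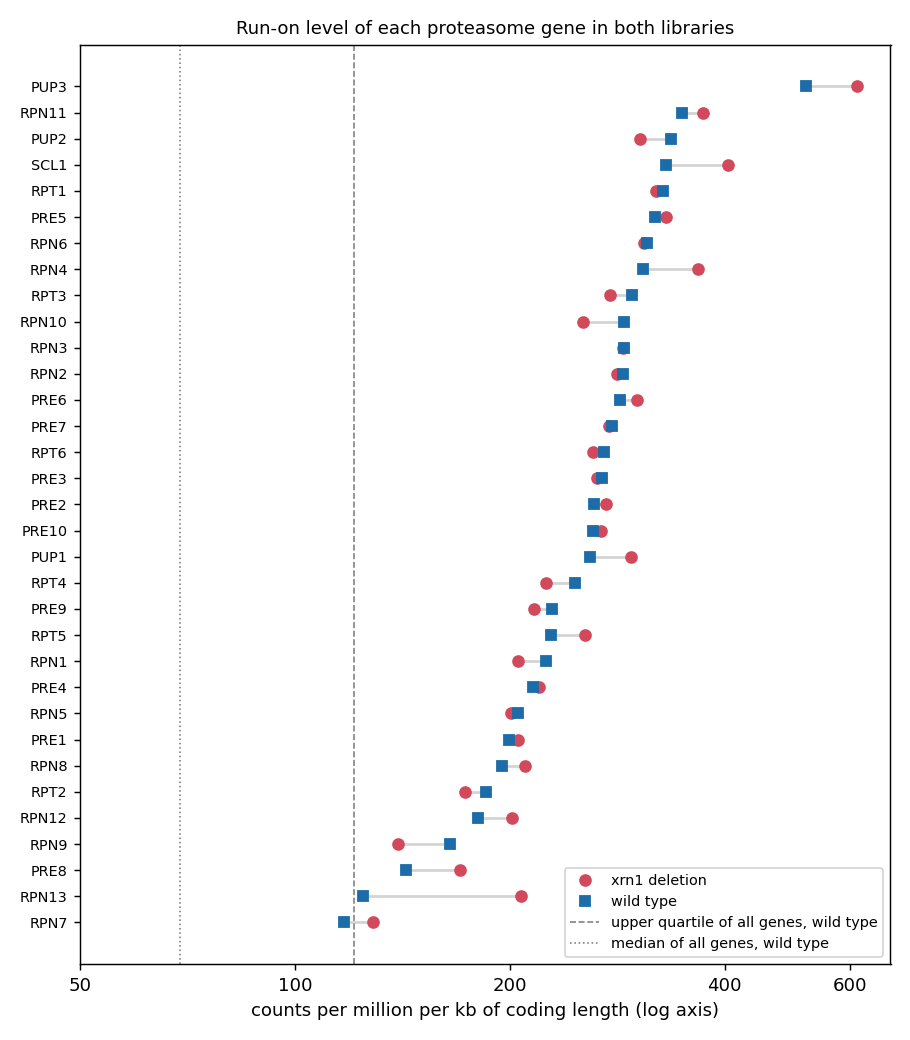
Run-on level of each of the 33 genes (rows, ordered by the wild type) in CPM per kb of coding length, on a log axis, in the xrn1 deletion strain (circles) and the wild type (squares). Vertical lines mark the median and the upper quartile of all genes in the wild type, 68.8 and 121, and the longest distance between circle and square is that of RPN13.

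The proteasome genes differed little between the strains relative to the median gene. Together the 32 subunits took 0.892% of the counts in the deletion strain and 0.886% in the wild type. The median log2 ratio of the 32 was 0.037, with quartiles at −0.03 and 0.14, against quartiles of −0.22 and 0.26 for all 5198 genes. None of the 33 genes was at least 2-fold higher, where 4.06% of all genes were, and none was at least 2-fold lower, where 1.52% were. At 1.5-fold, 1 of the 33 was higher, RPN13, against 10.3% of all genes, and 0 were lower, against 5.35%. At the smaller fold of 1.25, added after the ratios were seen, RPN13 was again the sole gene higher, against 20.4% of all genes, and 0 were lower, against 16.0%. SCL1 lay just below this fold, at 1.248. Of the 33 genes, 21 were above the median gene, where 50.0% of all genes are by construction.

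The ratios of the members were thus narrowly spread. Within 1.25-fold of the median gene lay 32 of the 33 members (97.0%) and 3301 of the 5198 genes (63.5%). This fold was added after the ratios were seen, and SCL1 lay just inside it, at 1.248 (1.22 to 1.28). Among 2890 protein-coding genes with between 8327 and 90363 counts over both libraries, the range of the members, 68.4% lay within 1.25-fold. The SD of the log2 ratio was 0.18 over the 32 subunits and 0.13 over the 31 without RPN13, against 0.55 over all genes and 0.48 over those in the same range of counts. It was 0.24 for the 12 subunits of RNA polymerase II and 0.10 for the 10 subunits of the RNA exosome core, so that the narrow spread is not particular to the proteasome. Subunits of 1 complex are not replicates, and these values describe 2 libraries.

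**Figure D3:**
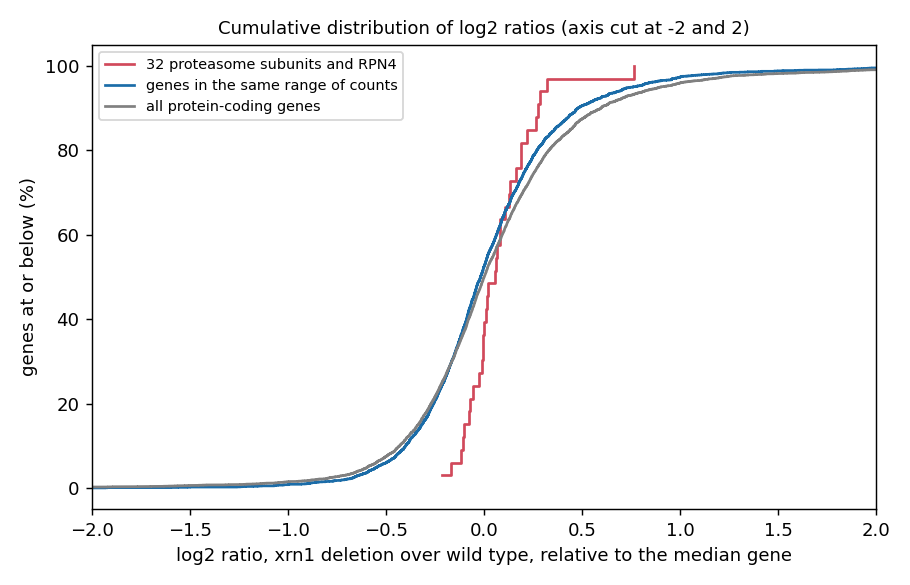
Cumulative share of genes (y axis, %) against the log2 ratio of the xrn1 deletion strain over the wild type relative to the median gene (x axis, drawn from −2 to 2), for the 33 members, for 2890 protein-coding genes in the same range of counts and for all 5198 protein-coding genes. The line of the members is steeper, from −0.22 to 0.32, with RPN13 alone at 0.76.

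Among the 20S core genes 12 of 14 were above the median gene, with a median log2 ratio of 0.073. The side is not fixed for all of them, since 7 of the 12 were below the median gene in at least 1 of 10 alternatives. The 7 α subunits form the outer rings, which gate the entry to the chamber. SCL1 (YGL011C, α1) had 14253 counts in the deletion strain and 16286 in the wild type, a ratio of 1.248 (1.22 to 1.28), the highest of the core. PRE8 (YML092C, α2) had 5941 and 6996 counts and a ratio of 1.21 (1.17 to 1.25). PUP2 (YGR253C, α5) had the lowest ratio of the core, 0.921 (0.899 to 0.943), from 11057 and 17117 counts. PRE9 (YGR135W, α3), the one core subunit that yeast can lose and live, had 7791 and 11567 counts and a ratio of 0.960 (0.933 to 0.988). The other α subunits, PRE6 (YOL038W), PRE5 (YMR314W) and PRE10 (YOR362C), had between 10685 and 10839 counts in the deletion strain and between 14173 and 14739 in the wild type, with ratios between 1.04 and 1.07.

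The 7 β subunits form the inner rings, and all 7 were at or above the median gene, with log2 ratios between 0.0017 and 0.26. PRE3, PRE7, PRE1 and PRE4 were below it in some alternatives, at their lowest at −0.08, −0.06, −0.01 and −0.02. The proteolytic sites are carried by 3 of them. PUP1 (YOR157C, β2, trypsin-like) had 10780 counts in the deletion strain and 13221 in the wild type, a ratio of 1.16 (1.13 to 1.19). PRE2 (YPR103W, β5, chymotrypsin-like) had 10914 and 14721 counts and a ratio of 1.06 (1.03 to 1.08), and PRE3 (YJL001W, β1, caspase-like) had 7952 and 11324 counts and a ratio of 1.00 (0.973 to 1.03). The catalytic subunits thus spanned most of the range of the β rings. Of the rest, PUP3 (YER094C, β3) was highest, with 17555 and 20849 counts and a ratio of 1.20 (1.18 to 1.22), and PRE1 (YER012W), PRE7 (YBL041W) and PRE4 (YFR050C) lay between 1.01 and 1.05. Of the 14 core genes, 10 had a counting interval above 1 and 2 had one below it, where 4437 of all 5198 genes had one that excludes 1 (2233 above and 2204 below).

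The RPT genes encode the ring of ATPases that unfolds substrates. Their median log2 ratio was −0.05, and 5 of 6 were below the median gene, although RPT1 was above it in 1 of 10 alternatives, at 0.015. RPT4 (YOR259C) was lowest, with 13716 counts in the deletion strain and 21083 in the wild type and a ratio of 0.928 (0.908 to 0.948). RPT5 (YOR117W) was the exception, with 15429 and 19318 counts and a ratio of 1.14 (1.11 to 1.16). RPT1 (YKL145W), RPT2 (YDL007W), RPT3 (YDR394W) and RPT6 (YGL048C) had between 10552 and 20873 counts in the deletion strain and between 15817 and 29849 in the wild type, with ratios between 0.949 and 0.997. Counting intervals of RPT1 and RPT6 included 1. The core and the ATPases differed in their medians by little more than 0.1 on the log2 scale, their ranges overlapped, and no test of that difference is possible with 1 library per strain. The core genes are also shorter, with coding lengths of 597 to 867 bases against 1218 to 1404 for the ATPases. With the trend on coding length removed, chosen after seeing the data, the median of the core was 0.0044. That of the ATPases lay between −0.075 and −0.020 over all alternatives. The part of length in the difference was not tested.

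The RPN genes encode the remaining subunits of the base and the lid, with a median log2 ratio of 0.016. RPN1 and RPN2, the large scaffold subunits of the base, had the most counts of all members. RPN1 (YHR027C) had 28358 counts in the deletion strain and 43440 in the wild type and a ratio of 0.931 (0.917 to 0.945). RPN2 (YIL075C) had 37198 and 53165 counts and a ratio of 0.998 (0.984 to 1.01). RPN11 (YFR004W), the deubiquitinase that removes chains from substrates, had 15928 and 20818 counts and a ratio of 1.09 (1.07 to 1.11), close to that of its inactive partner RPN8 (YOR261C). RPN8 had 9903 and 12874 counts and a ratio of 1.10 (1.07 to 1.13). Among the other lid subunits RPN3 (YER021W), RPN5 (YDL147W) and RPN6 (YDL097C) lay between 0.993 and 1.01. RPN7 (YPR108W) had 7697 counts in the deletion strain and 9804 in the wild type and a ratio of 1.12 (1.09 to 1.15). RPN12 (YFR052W) had 7718 and 9672 counts and a ratio of 1.14 (1.10 to 1.17). RPN9 (YDR427W) had the lowest ratio of the 33 genes, 0.861 (0.837 to 0.886), from 7643 and 12655 counts.

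RPN13 and RPN10, both known as ubiquitin receptors of the regulatory particle, lay toward opposite ends of the RPN genes. RPN13 (YLR421C, chromosome XII, 965090 to 965560, minus strand) had 4526 counts in the deletion strain and 3801 in the wild type, the one member with more raw counts in the smaller library. Its ratio was 1.70 (1.63 to 1.77), and its level was 207 (201 to 213) in the deletion strain against 124 (120 to 128) in the wild type. RPN10 (YHR200W) had 9472 counts in the deletion strain and 15165 in the wild type and a ratio of 0.891 (0.868 to 0.914). RPN13 was thus the 25th of the 33 levels in the deletion strain and the 32nd in the wild type, while RPN10 was the 20th in the deletion strain and the 10th in the wild type. Neither gene held PACE or its variant. The intervals cover counting error, and whether either ratio exceeds the spread between cultures is not known.

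RPN13 is also the shortest of the 33 genes, with a coding length of 471 bases. Short genes of the table more often had high ratios. Of 553 protein-coding genes no longer than RPN13, 104 were past 1.5-fold higher and 22 past 1.5-fold lower, with a median log2 ratio of 0.095. Of all 5198 genes, 536 (10.3%) were past 1.5-fold higher and 278 (5.35%) past 1.5-fold lower. Over the 32 subunits the Spearman coefficient of log2 ratio and coding length was −0.46, and −0.40 without RPN13, against −0.14 over all 5177 measured genes with a length. An alternative that removes the trend on coding length was added once the ratios were known. In it the log2 ratio of RPN13 was 0.68, against 0.76 as counted. The part of length in its ratio was not tested beyond that value.

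RPN4, the activator, had 27159 counts in the deletion strain and 31806 in the wild type. Its ratio was 1.22 (1.20 to 1.24), a log2 ratio of 0.28, and it was not past any of the folds used. Its level was 367 (362 to 371) in the deletion strain and 307 (304 to 310) in the wild type, the 4th and the 8th of the 33. Among the subunits, SCL1 and RPN13 had higher ratios than RPN4. The 27 genes with PACE had a median log2 ratio of 0.013, from −0.22 to 0.32, and the 6 without it one of 0.18, from −0.17 to 0.76. Those 6 are RPN4 itself, RPN10, RPN13, and PRE5, PUP1 and RPN8, which held the variant. The difference between the sets was not tested. Median levels with and without PACE were 264 and 274 in the deletion strain and 262 and 274 in the wild type.

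**Figure D4:**
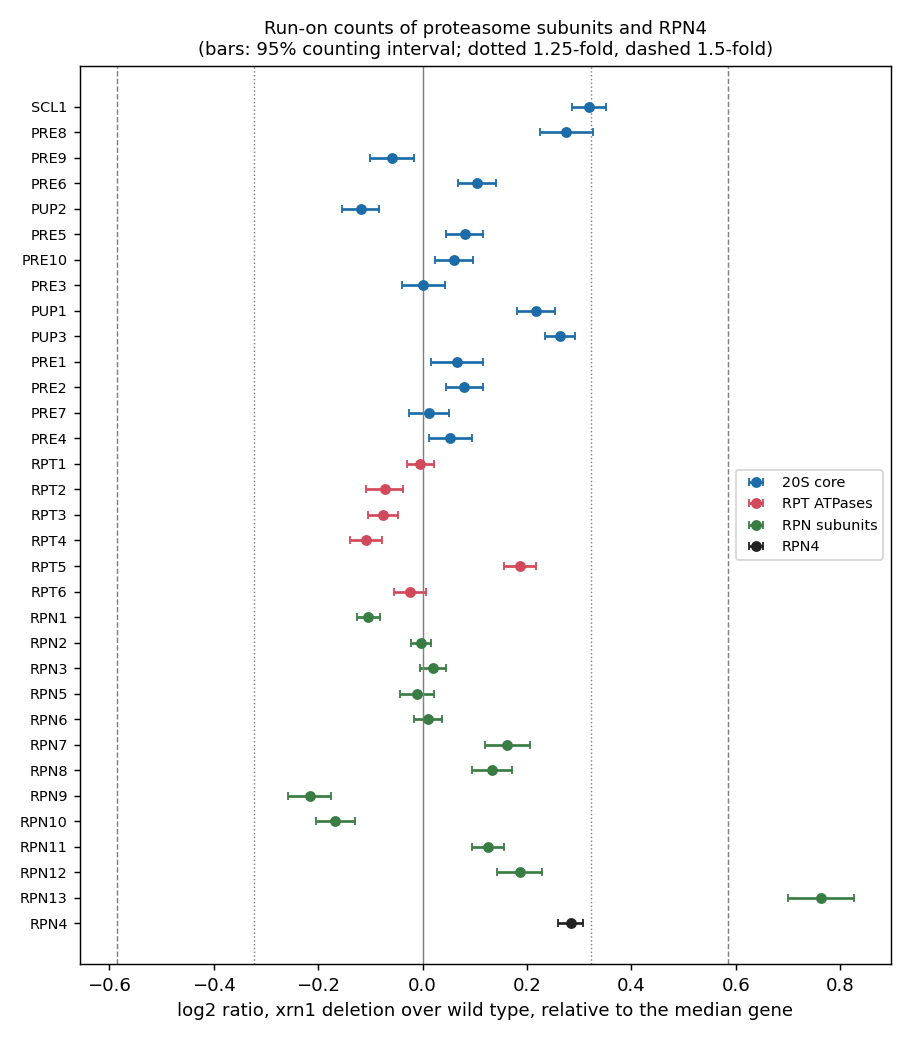
Log2 ratio of run-on counts, xrn1 deletion strain over wild type, relative to the median gene (x axis), for each of the 33 genes (rows), coloured by group, with 95% counting intervals as bars. Dotted lines mark 1.25-fold and dashed lines 1.5-fold. The point of RPN13 at 0.76 is the one beyond either, and the interval of SCL1 reaches past 1.25-fold.

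Of the factors known to activate RPN4, PDR3 differed most. PDR3, a zinc cluster activator of drug resistance genes, had 4668 counts in the deletion strain and 13798 in the wild type. It was 2.07-fold lower (2.01 to 2.14), at a log2 ratio of −1.05, the 1 gene of this list of 4 past 2-fold. Its relative PDR1 had 11162 and 17360 counts and a log2 ratio of −0.13, YAP1 was at 0.054 and HSF1 at −0.015. The call of PDR3 rests close to the threshold and was lost in 2 of 10 alternatives, at −0.94 with trends on mean count and GC content removed and at −0.99 with the trend on coding length removed. The genes that act in the turnover of Rpn4 lay nearer the median gene. The ubiquitin ligase gene UBR2 was at −0.28, its partner MUB1 at 0.014, the ligase gene UBR1 at −0.09 and the conjugating enzyme gene RAD6 at 0.34.

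Of 19 genes for proteasome assembly chaperones and associated proteins, 0 were past 2-fold, 2 were past 1.5-fold higher and 1 past 1.5-fold lower. These shares are near those of all genes, 10.3% higher and 5.35% lower. SEM1, a small subunit of the lid that is outside the 33 genes, had 3152 counts in the deletion strain and 2896 in the wild type and a ratio of 1.55 (1.47 to 1.63). TMA17, a chaperone of base assembly that is induced by stress, had 9460 and 8371 counts and a ratio of 1.61 (1.56 to 1.66), with a level of 450 against 285. ECM29, which holds core and regulatory particle together, had 9393 and 20139 counts and a ratio of 0.665 (0.649 to 0.682). Each of these calls was lost in 1 or 2 of 10 alternatives. The other chaperones of base assembly lay between −0.06 (NAS6) and 0.26 (NAS2) on the log2 scale. Those of core assembly had a median of 0.095, from −0.33 (POC4) to 0.34 (ADD66), with UMP1, the most transcribed by count, at 0.075. Of the other associated proteins, the activator gene BLM10 was at −0.18 and the deubiquitinase gene UBP6 at 0.21.

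Genes that attach and carry ubiquitin showed single deviations. The polyubiquitin gene UBI4, which is known to be induced by stress, had 34340 counts in the deletion strain and 33190 in the wild type and a ratio of 1.48, with 1.45 as the lower bound of its interval. That interval covers counting error only, and how reads with several matches were assigned among the ubiquitin genes is not known. The genes that encode ubiquitin fused to ribosomal proteins were all below the median gene, with RPL40A at −0.24, RPL40B at −0.29 and RPS31 at −0.19, and RPL40A and RPL40B are near-identical copies whose reads cannot be told apart with certainty. The activating enzyme gene UBA1 was at −0.19. Of 11 conjugating enzymes UBC11 alone was past 2-fold, from 186 and 132 counts, with a ratio of 2.01 (1.60 to 2.53), and 7 of 10 alternatives put it below 2-fold. UBC4 was lowest at −0.35, while its close paralog UBC5 was at 0.76, and reads of this pair may have been split between them. Of 10 ligases ASR1 was highest at 0.89, RKR1 lowest at −0.21 and TOM1, with the most counts, at 0.096. The Cdc48 segregase and the ubiquitin shuttles stayed close together, with all 10 within 1.25-fold. Their median was 0.092, CDC48 was highest at 0.24 and the shuttle gene RAD23 lowest at −0.18.

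**Figure D5:**
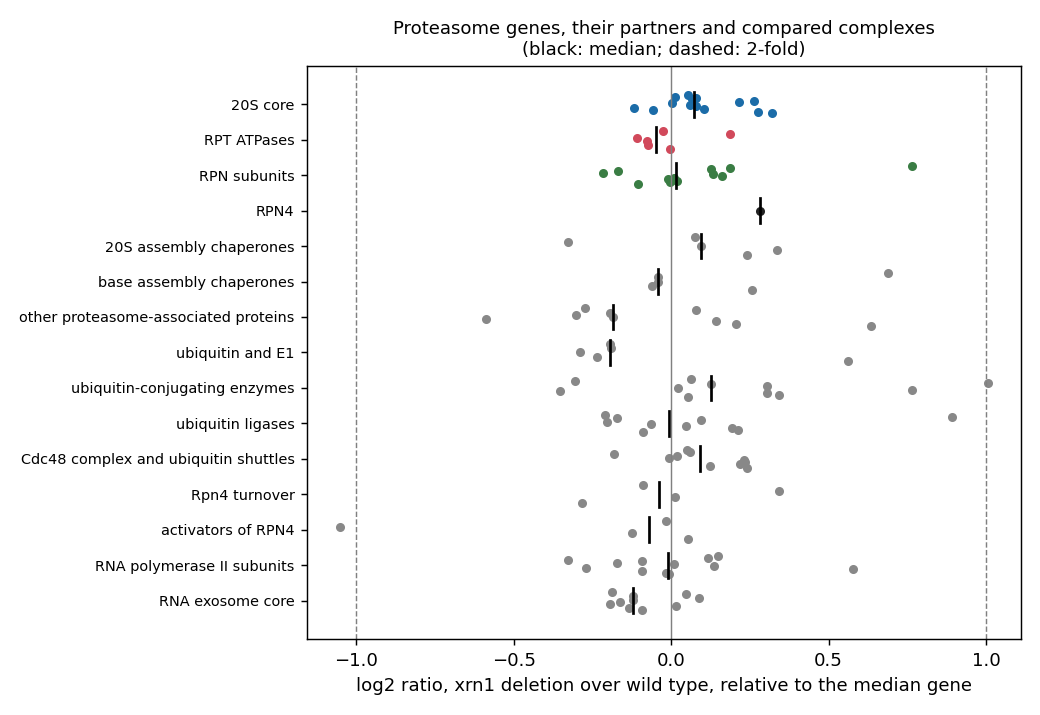
Log2 ratio of run-on counts, xrn1 deletion strain over wild type, relative to the median gene (x axis), of the proteasome genes by group, of their partners by list and of 2 other complexes (rows). Points are genes, black bars are medians, dashed lines mark 2-fold, and PDR3 at −1.05 and UBC11 at 1.01 are the genes at or beyond them.

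For comparison, the subunits of RNA polymerase II had a median of −0.01, from −0.33 (RPB10) to 0.58 (RPB4), with the largest subunit gene RPO21 at −0.0055. The exosome core had a median of −0.12, from −0.19 (SKI6) to 0.088 (RRP45), with DIS3 at −0.09. In both complexes 0 genes were past 1.5-fold, against 10.3% of all genes higher and 5.35% lower. RPB4 lay just short of it, at a ratio of 1.49, and with 12 and 10 genes such a count says little. Whether the medians of these complexes differ from that of the proteasome could not be tested with 1 library per strain.

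None of the 33 genes overlaps another gene annotated in RefSeq R64. Open reading frames outside RefSeq, which 5831 of the 6448 rows matched, were not checked for overlap or as neighbours. Of the 64 nearest RefSeq protein-coding genes on either side, 2 were at least 2-fold higher in the deletion strain and 0 lower, no more than among all genes (4.06% and 1.52%). HXK1, the glucose-repressed hexokinase gene, lies convergent to RPN12 with 262 bases between them. It had 34620 counts in the deletion strain and 2862 in the wild type, 17.2-fold higher (16.6 to 17.9), beside a ratio of 1.14 for RPN12. YMR315W lies downstream of PRE5 on the same strand, 386 bases away, and was 2.31-fold higher (2.24 to 2.38), beside a ratio of 1.06 for PRE5. The sources used here do not state whether reads were counted by strand, and the part of read-through from neighbours was not tested. The neighbours of RPN13 were URA4 at −0.40 and DCK1 at 0.15.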

How the data were processed

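The values are the counts that the authors deposited, as whole reads assigned to each open reading frame and not normalized. Per the submitters' processing notes, the tools were TopHat2 2.1.1, Subread with featureCounts, Trimmomatic and FastQC, on R64 (sacCer3). Settings, strand use and treatment of reads with several matches are not given there. Positions, coding lengths and upstream sequence came from RefSeq R64, where 5831 of 6448 rows and all 33 members matched.

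Ratios were scaled on 5198 protein-coding genes with at least 100 counts. Intervals are exact conditional (Clopper-Pearson) for ratios and exact Poisson for levels, at 95%, and cover counting error only. The protocols name no molecular identifiers, so copies of 1 molecule may be counted more than once and the intervals may be too narrow. A gene counts as past a fold when its interval also excludes 1. The procedure was run on simulated Poisson counts. These held no spread between cultures, so the run checks the computation only. Alternatives were 4 scalings (edgeR and DESeq2 among them), other count minimums, a pseudocount of 5, omission of genes that overlap in RefSeq, and lowess trends (span 0.3) removed.

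The members follow a rule on names alone, but they and the lists were chosen with earlier results of these data known. The text names all 33 members, XRN1, from each list the gene with most counts and those with the highest and lowest ratio, and neighbours past 2-fold. Other list genes were named after their values were seen. Computation used R 4.3.3 with DESeq2 1.42.0 and edgeR 4.0.16, and Python 3.11.15 with statsmodels 0.14.6, scipy 1.17.1, pandas 2.3.3 and numpy 2.4.6.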

Additional observations from a re-analysis of the deposited data

How the results depend on the processing

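No paired analysis was possible because neither strain has a replicate, which also precludes leaving a library out. Under all 10 alternatives 0 members were past 2-fold and RPN13 was the 1 member past 1.5-fold, at log2 ratios from 0.68 to 0.81. The scalings and count minimums shift all genes alike and by little, so these calls were open to change mainly where trends were removed. Between 30 and 32 members lay within 1.25-fold. The number above the median gene was 17 to 21, and several members lie near that gene. It was 17 when scaled by the total count of all rows or of protein-coding rows. The other scalings shifted the median of all genes by up to −0.03. That shift does not account for every change of side. PRE6, PRE5, PRE10, PRE1 and PRE4 stayed above the median gene with both total counts but were below it in at least 1 other alternative. With the total count of all rows the median of the RPN subunits was −0.011 and RPN4 was at 0.26. With trends on mean count and GC content removed, the median was 0.012 for the 20S core and 0.13 for the RPN subunits, and RPN4 was at 0.39. With the trend on coding length removed, chosen after seeing the data, these were 0.0044, 0.052 and 0.31. The cause of these differences was not tested. With at least 8327 counts per member, counting error is small, but the spread between cultures was not measured. The processing also mattered beyond counting error for many members. With trends on mean count and GC content removed, 21 of the 33 ratios fell outside their counting interval as counted. The trend on coding length, when removed, also moved 21 outside it. With the total count of all rows 5 did so, with that of protein-coding rows 1, and under the other alternatives 0. RPN9, at −0.22 as counted, ranged from −0.24 to −0.02 over the alternatives.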

Other observations

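Besides the 27 proteasome genes, 42 measured protein-coding genes held the PACE sequence within 300 bases upstream of the start codon. Their median log2 ratio was 0.031, with quartiles at −0.15 and 0.20, and 24 of the 42 were above the median gene. Of them 2 were at least 2-fold higher, the acetyl-CoA synthetase gene ACS1 (1459 counts in the deletion strain and 1005 in the wild type, a ratio of 2.07) and HUA1 (3882 and 2366 counts, a ratio of 2.34), and 0 were at least 2-fold lower, against 4.06% and 1.52% of all genes. ECM29 and REB1, a general regulatory factor gene with 6161 and 14298 counts and a ratio of 0.614, were past 1.5-fold lower, against 5.35% of all genes, so that these counts are near the background. The list includes UBI4, UBA1, CDC48, ECM29 and YAP1, whose values are given above. The median level of the 42 was 92.1 in the deletion strain and 93.0 in the wild type, against 264 and 262 for the proteasome genes with PACE. These genes were named after their values were seen.

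At 7 places the same PACE lies between a proteasome gene and a divergent partner, with 265 to 389 bases between the start codons. Ratios on the 2 sides were close for RPN5 and NOP14 (0.993 and 0.986) and for RPN7 and YTH1 (1.12 and 1.14). They were farther apart for RPN11 and YPI1 (log2 ratios of 0.13 and 0.58), for RPT6 and ALG13 (0.983 and 0.772) and for RPN6 and PMT1 (1.01 and 0.854). SCL1 was at 1.25 beside MPO1 at 1.10, and RPT4 at 0.928 beside GCD1 at 0.865. With 1 library per strain these differences were not tested.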
